A study of Mus musculus with 11 samples.

Results

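The 7 genes described here encode subunits of PI3-kinases: the class IA catalytic subunits Pik3ca, Pik3cb and Pik3cd, the class II kinase Pik3c2a, and the class IA regulatory subunits Pik3r1, Pik3r2 and Pik3r3. They were taken by name, as the genes whose symbol the array annotation gives to at least 1 genomic probe, and are 7 of 20709 genes so annotated. The samples are 11 mammary tumours of Pik3ca H1047R mice, each from a different animal, and copy number was read by hybridising genomic DNA of each tumour (Cy5, red) against liver DNA of its own host (Cy3, green) on an Agilent mouse genomic array. All animals were of mixed FVBN/Bl6 strain, and tumour and liver both came from the mutant animals, so no group lacks the H1047R allele. The labels do not say how the allele was made, what drives its expression, whether other alleles were present, or how old the animals were. DNA ratios hold no expression markers, so the tissue labels could not be checked that way, and normal cells in a tumour bring every ratio closer to 0.

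Class IA PI3-kinases are pairs of a catalytic subunit (p110α from Pik3ca, p110β from Pik3cb, p110δ from Pik3cd) and a regulatory subunit that stabilises it, holds it inactive and docks it to phosphorylated receptors (p85α from Pik3r1, p85β from Pik3r2, p55γ from Pik3r3). The active enzyme makes the membrane lipid PIP3, which recruits AKT, while Pik3c2a is a class II enzyme with different lipid products and a role in membrane traffic. In human breast cancer PIK3CA is a frequently mutated oncogene, H1047R in its kinase domain is among the most common changes, and loss of PIK3R1 is known to raise pathway activity.

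The 7 genes were read by 49 probes of 60 bases, and the sequences that follow are those the gene values rest on most directly, as the scanner files give them, with mm9 positions and runs of at least 4 identical bases in capitals. The files do not state on which strand a probe lies. The 4 probes of Pik3ca are shown because the whole value of that gene comes from them, the only probe of Pik3r2 because its value has no second reading, and 1 probe each of Pik3cd and Pik3cb because these gave opposite extremes in different tumours.
Pik3ca, chr3:32340092-32340151: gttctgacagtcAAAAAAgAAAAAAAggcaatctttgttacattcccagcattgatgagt
Pik3ca, chr3:32345895-32345954: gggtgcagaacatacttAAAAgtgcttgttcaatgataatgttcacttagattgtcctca
Pik3ca, chr3:32354994-32355053: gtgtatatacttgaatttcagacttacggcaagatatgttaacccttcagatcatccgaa
Pik3ca, chr3:32363520-32363579: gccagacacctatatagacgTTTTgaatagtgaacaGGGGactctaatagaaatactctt
Pik3r2, chr8:73294109-73294168: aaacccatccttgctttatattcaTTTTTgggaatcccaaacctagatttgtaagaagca
Pik3cd, chr4:149057790-149057849: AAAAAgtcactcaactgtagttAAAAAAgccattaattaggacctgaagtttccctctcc
Pik3cb, chr9:98964598-98964657: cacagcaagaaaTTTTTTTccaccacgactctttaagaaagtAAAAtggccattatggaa

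All values are log2 ratios of tumour over liver, read relative to the median of the array, so 0 is the middle of that tumour's genome and 0.58 would be 3 copies against 2 in a pure sample. The 11 arrays lay on slide 1 (tumours 2, 3 and 8), slide 2 (tumours 4, 7, 9 and 11) and slide 3 (tumours 1, 5, 6 and 10), and the SD of the noise between neighbouring probes ran from 0.13 in tumour 8 to 0.55 in tumour 9, with 0.51 in tumour 11 and a median of 0.18. Of each array's genomic spots, 0.0803% to 12.8% were dim, that is not well above background in the red or the green channel, and 18 of the 539 spots of the 7 genes were among them. Over all 170305 probes the array of tumour 11 had correlations of -0.60, -0.61, -0.65 and -0.32 with those of tumours 4, 5, 9 and 10, and from -0.22 to 0.25 with the other arrays, while the 45 pairs without tumour 11 ran from -0.036 to 0.78. The labels give the same dyes for all arrays, so the labelled direction was kept, and gene means with the ratios of tumour 11 turned, or without it, stand beside the main ones. How precise a mean can be is set by the number of arrays, 1 for each animal.

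The labels do not say whether the H1047R allele lies at the chromosome 3 locus that the Pik3ca probes read. Pik3ca was higher in the tumours than in the livers. Its mean log2 ratio was 0.26 ± 0.21 (SD, n = 11; 95% interval 0.14 to 0.38), which is a ratio of 1.195 on the linear scale, and its value lay above 0 in 11 of 11 tumours. Values ran from a low of 0.01 (tumour 9) through a median of 0.24 to a high of 0.59 (tumour 1). Tumours 1, 2 and 3 (0.59, 0.57 and 0.47) stood above all others, tumours 4 to 7 lay together between 0.23 and 0.27, and tumours 8 to 11 were at or below 0.09. The mean passed the limma test across the 9305 genes with at least 3 probes (Benjamini-Hochberg adjusted p = 0.0219), in which 6.89% of all genes were called and 4.59% were called higher, and the exact two-sided sign-flip permutation test over the tumours gave p = 0.000977, the smallest it can give with 11 tumours. Leaving out tumour 2, 3 or 6 moved the adjusted p to 0.0515, 0.0563 or 0.0541. With tumour 11 turned the mean was 0.25 with 10 of 11 tumours above 0 (adjusted p = 0.00744, limma; exact p = 0.00293). Slides 1, 2 and 3 had means of 0.37, 0.13 and 0.29.

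**Figure D1:**
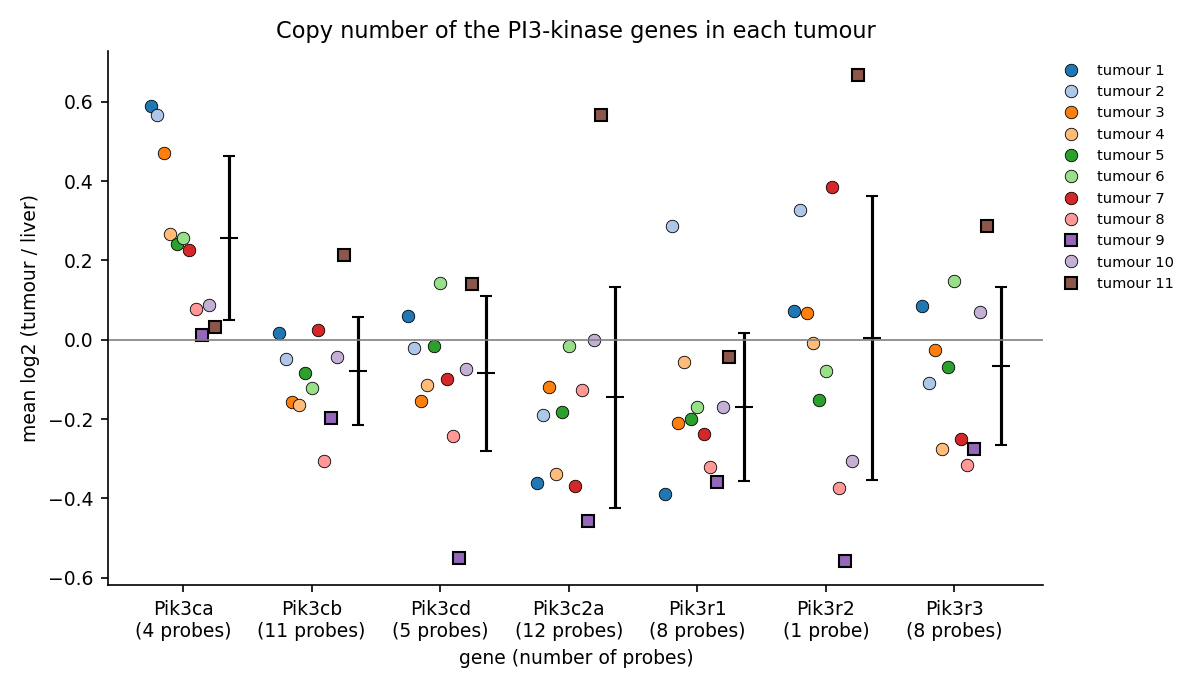
Mean log2 ratio of tumour over liver of the probes of each of the 7 genes (x axis) in each of the 11 tumours (coloured points; squares are tumours 9 and 11, the 2 arrays with the most noise), with the mean and SD over the 11 tumours to the right of each group. Pik3ca lies above 0 in all 11 tumours, from 0.01 to 0.59, while the means of the other genes lie between -0.17 and 0.0038.

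The 4 Pik3ca probes whose sequences stand above were all above 0 in 6 tumours. In tumour 6, with 0.13 the second quietest array, they spanned 0.23 to 0.29, whereas in tumours 9 and 11 they spanned -0.43 to 0.52 and -0.42 to 0.59. The most stable was the probe at 32363520, positive in all 11 tumours with a mean of 0.37, while the probe at 32340092 was positive in 7 tumours with a mean of 0.11.

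The value of Pik3ca did not differ detectably from that of its surroundings. The 709 probes within 5 Mb on either side had a mean of 0.22 ± 0.16 (SD, n = 11), and the gene exceeded them by 0.04 ± 0.08 (95% interval -0.01 to 0.10; adjusted p = 0.448, limma; 0.602% of all genes called relative to flanks), with 9 of 11 tumours above 0. The nearest genes with at least 3 probes had like means: 0.28 for the transcript ENSMUST00000108243, whose probes end 9.66 kb before those of Pik3ca, and 0.29, positive in 11 of 11 tumours, for Mfn1, a mitochondrial fusion GTPase 73.5 kb after it. Chromosome 3 as a whole had 257 of 486 tested genes called higher (52.9%) and none called lower by limma, and Pik3ca ranked 50th among them by mean. Genes above 0 in all 11 tumours numbered 101, of which 43 lay on chromosome 3.

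In single tumours, segmentation placed Pik3ca in a gain (a segment of at least 10 probes with a mean of at least 0.2) in tumours 1, 2, 3 and 4. These gains were long. In tumour 3 the segment ran from 24631448 to 35974798 on chromosome 3 (11.3 Mb, mean 0.39), in tumour 2 from 25315693 to 42734988 (17.4 Mb, mean 0.47), in tumour 1 from 24672249 to 54167153 (29.5 Mb, mean 0.40) and in tumour 4 from 13569348 to 87470990 (73.9 Mb, mean 0.24). In tumour 3 the next segment, which began 3611 kb beyond the gene, had a higher mean of 0.61, and in tumour 1 the next segment had 0.52, so both had a higher level further along the chromosome than in the segment over Pik3ca. Tumours 5, 6, 7 and 8 had segment means of 0.19, 0.19, 0.16 and 0.15 over the gene and were not called, and all 4 were called at a threshold of 0.15. Tumours 9, 10 and 11 had segment means of 0.13, 0.02 and -0.04. A gain in at least 4 tumours was shared by 1098 genes (5.30% of all), 278 of them on chromosome 3.

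**Figure D2:**
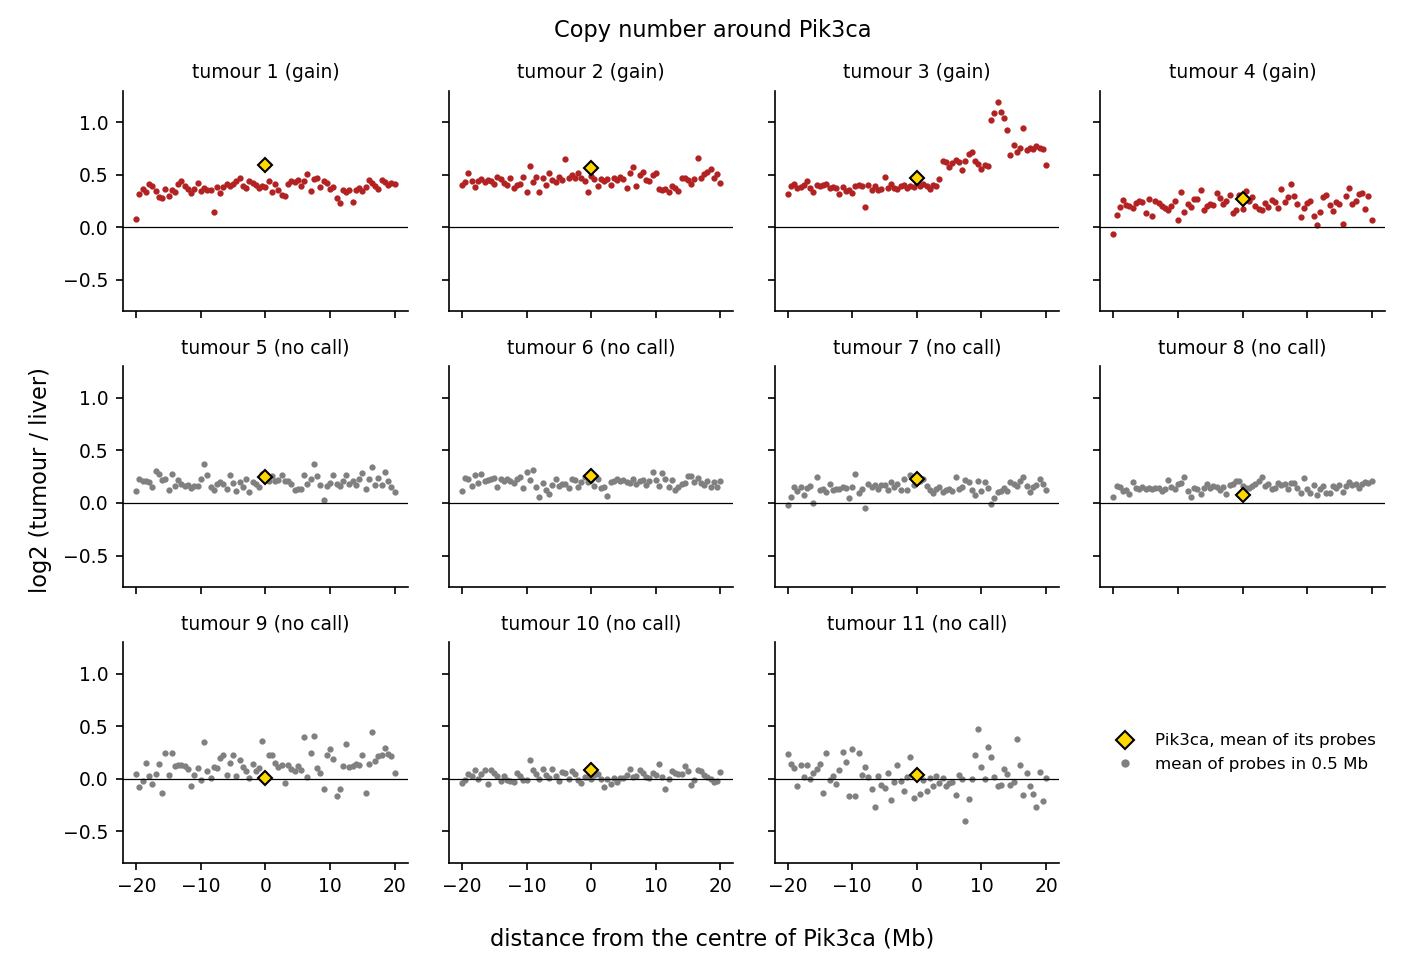
Log2 ratio of tumour over liver in 0.5 Mb steps against the distance from the centre of Pik3ca in Mb, 1 panel per tumour, red where the gene was called gained and grey where it was not; the diamond is the mean of the 4 Pik3ca probes. The level is flat across the gene in most panels, and in tumour 3 it steps up to the right of it.

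The other class IA catalytic genes did not pass the test in either direction. Pik3cb (chromosome 9, 98943136 to 99034931, 11 probes), which encodes the subunit that also takes signals from G protein-coupled receptors, had a mean of -0.08 ± 0.14 (SD, n = 11; adjusted p = 0.297, limma). Its lowest value was -0.31 in tumour 8, its median -0.08 and its highest 0.21 in tumour 11, and 8 of 11 tumours lay below 0. The means of slides 1, 2 and 3 were -0.17, -0.03 and -0.06. With tumour 11 turned the mean was -0.12 and the gene was called lower (adjusted p = 0.038, limma), in a fit that called 18.1% of all genes. Tumour 8 was the only tumour with a called segment over Pik3cb, a loss of 77.1 Mb with a mean of -0.30, and there no probe of the gene was above 0.

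Pik3cd (chromosome 4, 149031650 to 149067027, 5 probes), the catalytic subunit best known from leukocytes, had a mean of -0.08 ± 0.19 (SD, n = 11; adjusted p = 0.38, limma). It had -0.55 in tumour 9 as the lowest value, a median of -0.07 and 0.14 in tumours 6 and 11 as the highest, with 8 of 11 tumours below 0. Slides 1 and 2 had means of -0.14 and -0.16 and slide 3 a mean of 0.03. The value of -0.55 rested on 2 probes: the probe at 149057790 shown above read -2.01 and the probe at 149037664 read -1.30, while the other 3 were above 0. Of the 5 spots of Pik3cd in tumour 9, 2 were dim. Without tumours 9 and 11 the mean was -0.06 ± 0.12 (SD, n = 9). With medians over probes it was -0.03, and without dim spots -0.05 (n = 11 each). It was -0.11 with tumour 11 turned (adjusted p = 0.141, limma). Leaving out 1 tumour at a time gave means of -0.11 to -0.04. Tumour 8 had a loss over Pik3cd with a mean of -0.24 that ended 25.5 kb past the gene, but the next segment was lower still at -0.34, so this edge was a step within a longer reduced stretch.

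Pik3ca exceeded Pik3cb by 0.34 ± 0.24 and Pik3cd by 0.34 ± 0.23 (SD of the paired differences, n = 11), in 10 of 11 tumours each (exact sign-flip permutation p = 0.00293 and 0.00195, unadjusted, of 6 comparisons of Pik3ca with another of the genes). All 6 of these differences were positive, the least clear being that from Pik3r2 (0.25 ± 0.35, 9 of 11 tumours, exact p = 0.0439). All 6 stayed positive with tumour 11 turned, from 0.36 to 0.50.

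Pik3c2a (chromosome 7, 123484436 to 123581548, 12 probes) had a mean of -0.15 ± 0.28 (SD, n = 11; adjusted p = 0.247, limma), with 9 of 11 tumours below 0. The lowest value was -0.46 in tumour 9, the median -0.18 and the highest 0.57 in tumour 11, which stood 0.57 above the next value, 0.00 in tumour 10. Without tumour 11 the mean was -0.22 ± 0.16 (SD, n = 10) and the gene was called lower (adjusted p = 0.00667, limma), as it was without tumours 9 and 11 (-0.19, adjusted p = 0.012, limma) and with tumour 11 turned (-0.25, adjusted p = 0.00425, limma). In those 3 fits 16.0% to 18.1% of all genes were called. The slide means were alike at -0.15, -0.15 and -0.14. Segments gave a loss over Pik3c2a in tumour 1 (36.4 Mb, mean -0.35) and tumour 7 (96.0 Mb, mean -0.33). Chromosome 7 had 118 of 553 tested genes called lower (21.3%) and none called higher, and the flanks of Pik3c2a had a mean of -0.12 ± 0.12 (SD, n = 11), against which the gene differed by -0.02 ± 0.26. The difference was -0.12 with tumour 11 turned (adjusted p = 0.153, limma) and -0.08 without it (adjusted p = 0.271, limma). Nucb2, a calcium-binding protein gene 69.4 kb further on, was itself called lower, with a mean of -0.25 (adjusted p = 0.0191, limma).

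Among the regulatory genes, Pik3r1 (chromosome 13, 102459422 to 102536771, 8 probes), which encodes the main partner of p110α, had the lowest mean of the 7 in the labelled direction, but not with tumour 11 turned or left out, where Pik3c2a was lower. Its mean was -0.17 ± 0.19 (SD, n = 11; 95% interval -0.28 to -0.06), a linear ratio of 0.889, and 10 of 11 tumours lay below 0. The lowest value was -0.39 in tumour 1, the median -0.20 and the highest 0.29 in tumour 2, the only tumour above 0. The gene was not called by limma (adjusted p = 0.0647), while the exact sign-flip permutation test over the tumours gave p = 0.0205, unadjusted; 23.0% of all tested genes had an unadjusted p below 0.05 in limma. The call was made under 7 of 21 other settings, among them normexp background correction (-0.20, adjusted p = 0.0229, limma) and leaving out tumour 2 (-0.22, adjusted p = 0.0405, limma). Those 2 fits called 11.2% and 1.84% of all genes. With tumour 11 turned its mean was -0.16 (adjusted p = 0.0466, limma) and without tumour 11 -0.18 (adjusted p = 0.0314, limma), where 18.1% and 17.3% of all genes were called. Its means on slides 1, 2 and 3 were -0.08, -0.17 and -0.23.

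Pik3r1 also lay below its own surroundings in 9 of 11 tumours. The 661 probes within 5 Mb had a mean of -0.06 ± 0.15 (SD, n = 11), and the gene differed from them by -0.11 ± 0.10 (95% interval -0.18 to -0.05), with extremes of -0.31 in tumour 9 and 0.02 in tumour 2. The exact sign-flip permutation p was 0.00391, unadjusted, and the limma fit over all genes did not call it (adjusted p = 0.0927; 0.247% of all genes called lower than their flanks). Of 22 other settings, 18 did not call it either and 4 did. Those 4, with their adjusted p by limma, were tumour 11 turned (0.0321), without it (0.0289), without tumours 9 and 11 (0.0297) and the slide as a random block (0.00643). Those fits called 8.65%, 6.08%, 5.17% and 4.93% of all genes relative to flanks. The slide block was fitted with a negative correlation within slides (-0.16), which gives a mean a smaller error than a fit without the block. Leaving out 1 tumour at a time gave adjusted p of 0.0289 to 0.194 (limma), with the gene called in 1 of 11 such fits. In tumours 6 and 10 (noise SD 0.13 and 0.18) the flanks were at -0.02 and 0.01 while the gene was at -0.17 in both, with none of its 8 probes above 0. In tumours 1 and 3 no probe of Pik3r1 was above 0 either, which makes 4 tumours, but there the flanks were below 0 too. Those flanks were at -0.35 and -0.11, against -0.39 and -0.21 for the gene. In tumour 8 the gene was at -0.32 against -0.11 for its flanks. Tumours 1, 2, 3 and 8 had less noise than tumour 10 (SD 0.16, 0.16, 0.15 and 0.13). There the gene minus its flanks was -0.04, 0.02, -0.10 and -0.21. The nearest genes with at least 3 probes, AK029970 (238 kb before it) and ENSMUST00000091273 (on the other side), had means of -0.04 and -0.05. With segments of 751 to 7590 probes over the gene in the 11 tumours, the segmentation did not set Pik3r1 apart in any of them at the penalty used. With 0.5 times that penalty the gene was called lost in tumour 8 as well as in tumour 1. That setting also added calls over other subunit genes. Pik3c2a was called lost in tumours 3, 4 and 9 and gained in tumour 11, and Pik3cd was called lost in tumour 9.

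**Figure D3:**
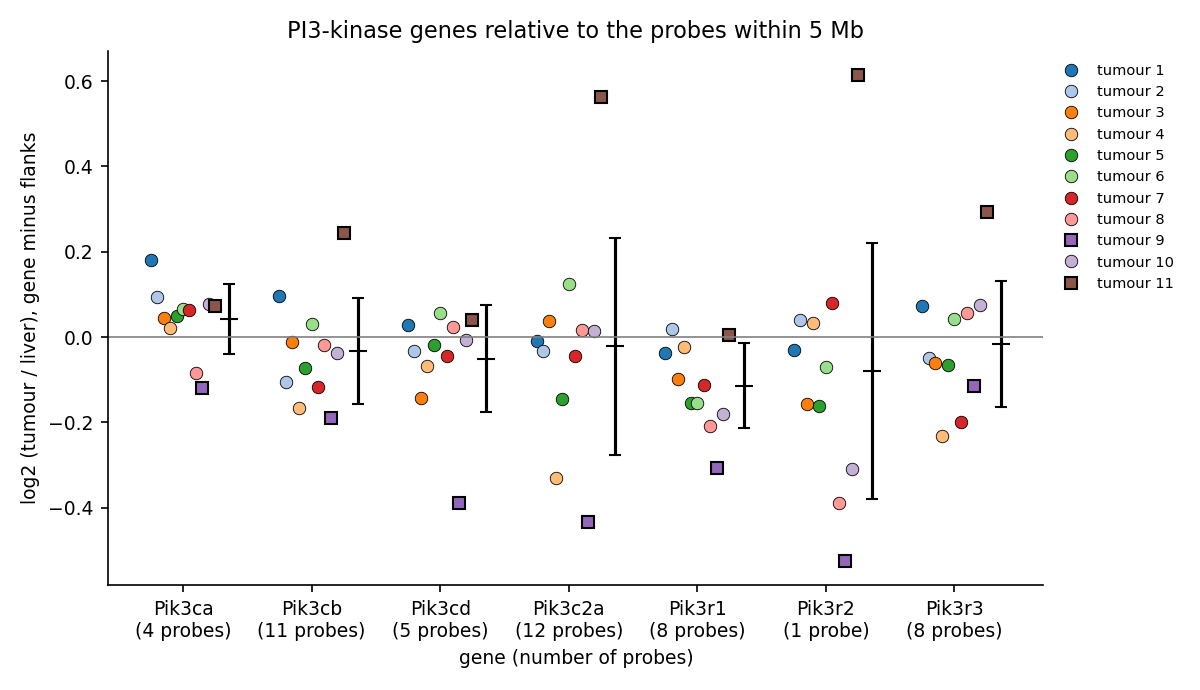
Log2 ratio of each of the 7 genes minus the mean of the probes within 5 Mb on either side, in each of the 11 tumours (coloured points; squares are tumours 9 and 11), with the mean and SD to the right. Pik3r1 lies below 0 in 9 of 11 tumours with an SD of 0.10, Pik3ca is centred at 0.04, and the single probe of Pik3r2 spreads from -0.53 to 0.61.

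Tumours 1 and 2 had Pik3r1 in called segments of opposite direction. Tumour 1 had a loss of 92.9 Mb with a mean of -0.36 and tumour 2 a gain of 19.6 Mb, from 89815783 to 109445679, with a mean of 0.28. The same 2 tumours had the highest values of Pik3ca, so the highest Pik3ca level occurred beside both the lowest and the highest Pik3r1 level of the series. Pik3ca exceeded Pik3r1 in 11 of 11 tumours, by 0.43 ± 0.24 (SD, n = 11; exact sign-flip permutation p = 0.000977, the smallest possible). It did so in 10 of 11 with tumour 11 turned, by 0.41 ± 0.26 (exact p = 0.00195).

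**Figure D4:**
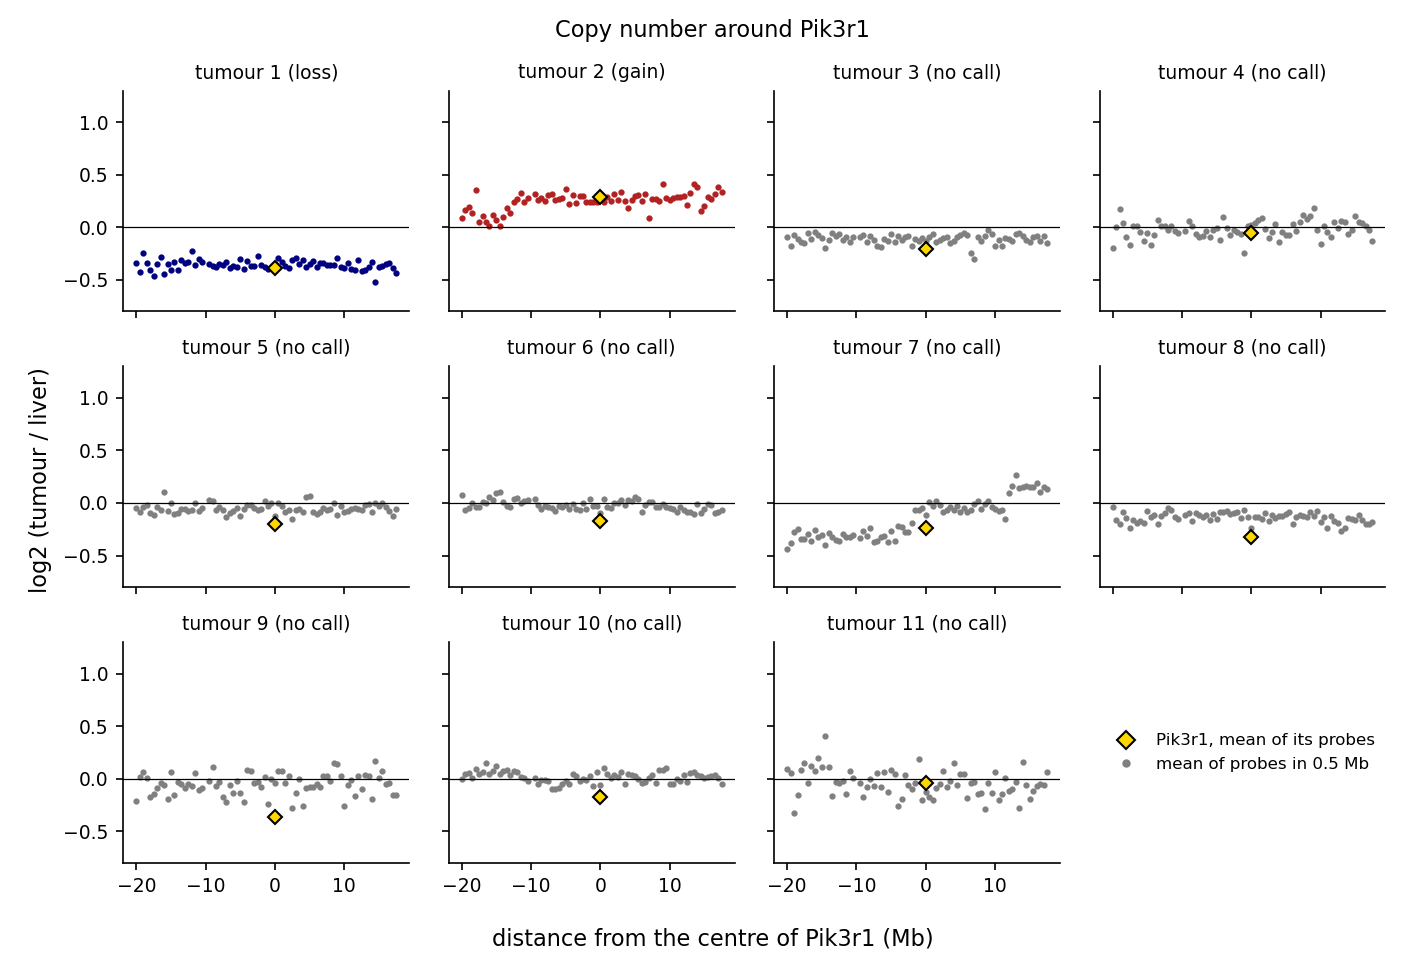
Log2 ratio of tumour over liver in 0.5 Mb steps against the distance from the centre of Pik3r1 in Mb, 1 panel per tumour, blue where the gene was called lost, red where it was called gained and grey elsewhere; the diamond is the mean of the 8 Pik3r1 probes. The diamond sits below the surrounding points in tumours 5, 6, 8, 9 and 10, where the gene minus its flanks lay between -0.15 and -0.31.

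Pik3r2 (chromosome 8, 73294109 to 73294168), which encodes p85β, had 1 probe and so was left out of the limma fit of genes with at least 3 probes. Its mean was 0.0038 ± 0.36 (SD, n = 11; exact sign-flip permutation p = 0.976), with -0.56 in tumour 9 as the lowest value, a median of -0.01 and 0.67 in tumour 11 as the highest. The slide means were 0.0069, 0.12 and -0.12. The mean was -0.12 with tumour 11 turned and -0.06 without it. In a fit over all genes with at least 1 probe the 95% interval of the mean was -0.20 to 0.21 (adjusted p = 0.986, limma). The sign of so small a mean turned under 8 of 19 other settings. Segments, which use the neighbouring probes too, gave a gain over Pik3r2 in tumours 2, 3 and 7, of 54.4, 81.8 and 128.6 Mb, with means of 0.36, 0.23 and 0.31. In tumour 3 the probe itself read 0.07. In tumours 8 and 10 it read -0.37 and -0.31 where the flanks read 0.02 and 0.0026, and no second probe of the gene was there to set against it. Relative to flanks the mean was -0.08 ± 0.30 (exact sign-flip permutation p = 0.402, n = 11), and it was -0.19 with tumour 11 turned (exact p = 0.0225).

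Pik3r3 (chromosome 4, 115895952 to 115968593, 8 probes) had a mean of -0.07 ± 0.20 (SD, n = 11; adjusted p = 0.516, limma), with 7 of 11 tumours below 0. Its extremes were -0.32 in tumour 8 and 0.29 in tumour 11, around a median of -0.07. With tumour 11 turned the mean was -0.12 (adjusted p = 0.103, limma). Leaving out 1 tumour at a time moved it between -0.10, without tumour 11, and -0.04. Slides 1 and 2 had means of -0.15 and -0.13 and slide 3 a mean of 0.06. Tumour 8 held its only call, a loss of 30.8 Mb with a mean of -0.28, with no probe above 0. Pik3r3 and Pik3cd lie on the same chromosome, and both were lost in tumour 8. Between their segments lay only another reduced one, of 0.248 Mb with a mean of -0.45, so both calls were parts of a continuous reduced stretch.

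In all, 14 of the 77 pairs of gene and tumour lay in a called segment, 8 in gains (10.4%, against 6.27% of pairs over all genes) and 6 in losses (7.79%, against 6.86%). The called segments measured from 4.37 to 128.6 Mb, with a median of 45.4 Mb, against at most 97.1 kb between the outer probes of a gene. They fell in 6 tumours, 3 each in tumours 1, 2 and 8, 2 each in tumours 3 and 7, and 1 in tumour 4, while tumours 5, 6, 9, 10 and 11 had none. Tumour 2 had 3 gains (Pik3ca, Pik3r1 and Pik3r2) and no loss, tumour 8 had 3 losses (Pik3cb, Pik3cd and Pik3r3) and no gain, and tumours 1 and 7 had both kinds. With each array centred on the most frequent smoothed level instead of the median, the 3 losses in tumour 8 and the Pik3r2 gain in tumour 7 were no longer called, Pik3ca was gained in tumours 5 and 8 too, Pik3cd and Pik3r3 were called lost in tumour 7, and the totals were 9 gains and 5 losses. Losses went to 11 with a lower penalty for segment breaks, and gains to 5 and losses to 3 at a threshold of 0.3.

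Ordered by mean the genes ran Pik3ca, Pik3r2, Pik3r3, Pik3cb, Pik3cd, Pik3c2a and Pik3r1. None of the 6 pairs of neighbours in this order differed by more than the SD of its paired differences over single tumours. The step from Pik3ca to Pik3r2 was 0.25 ± 0.35 (n = 11; exact sign-flip permutation p = 0.0439, unadjusted, of 6 steps). The other 5 steps were 0.0059 to 0.07 (exact sign-flip permutation p = 0.407 to 0.884, unadjusted). The order was set by the same values, so these p describe the steps and cannot test the order. The order below Pik3ca depended on tumour 11, and with it turned the means were -0.11 for Pik3cd, -0.12 for Pik3cb, Pik3r2 and Pik3r3, -0.16 for Pik3r1 and -0.25 for Pik3c2a, under 0.25 for Pik3ca. In the labelled direction Pik3ca was the highest of the 7 in 9 of 11 tumours and Pik3r2 in tumours 7 and 11.

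The genes whose values were most like those of each subunit gene were sought by the root mean square difference of log2 ratios over the 11 tumours. For Pik3ca the closest were AK052472 and ENSMUST00000099185, both on chromosome 3 at 2.29 and 8.62 Mb, with differences of 0.071 and 0.077 against a median of 0.36 over all genes, and 50 of its 50 closest genes lay on chromosome 3, which holds 5.22% of the tested genes. For Pik3r1, 42 of the 50 closest lay on its chromosome 13 (4.09% of genes), led by Aak1 on chromosome 6 and Nsun2 on chromosome 13 at a difference of 0.094 each. The count was lower for the others, with 24 of 50 for Pik3cb (closest Syt16 and Mnat1, both on chromosome 12), 23 for Pik3cd (Eif4g3 and Kcnab2), 19 for Pik3c2a (5430419D17Rik and Smg1) and 16 for Pik3r3 (Kif1b and Osbpl8). The chromosomes of these genes each hold 5.76% to 6.30% of the tested genes. These counts describe the same 11 arrays from which the gene values come.

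Single probes differed more between arrays than the gene means. Of the 49 probes, 38 had opposite signs in tumour 11 and in the mean of tumours 4, 5 and 9. That mean was at least 0.5 in size for 10 probes, all 10 of them among the 38. Over all 170305 probes tumour 11 had correlations of -0.60, -0.61 and -0.65 with tumours 4, 5 and 9. Over the 49 probes these correlations were -0.67, -0.56 and -0.70. The share of all probes with opposite signs was not counted. The Pik3cd probe at 149057790 read -0.92, -0.66 and -2.01 in tumours 4, 5 and 9 and 1.37 in tumour 11. The Pik3cb probe at 98964598 read -0.71, -0.50 and -1.25 in those tumours and 1.17 in tumour 11. The share of G and C was 36.7% and 35.0% in these 2 probes and 36.7% in the median probe. Over all probes the correlation of the log2 ratio with that share was 0.19, 0.21 and 0.18 in tumours 4, 5 and 9 and -0.13 in tumour 11. With the median of probes of like share subtracted, the means of Pik3cd and Pik3cb were -0.079 and -0.071, against -0.085 and -0.079. The part of that share in the single readings was not tested. In tumours 9 and 11 together the median SD between the probes of 1 gene was 0.49 for Pik3ca and 1.00 for Pik3cd, against medians over all 11 tumours of 0.16 and 0.16. Leaving the 2 arrays out gave means of 0.31 for Pik3ca and -0.06 for Pik3cd over the other 9. Over all 11 tumours, medians over probes gave 0.26 and -0.03, and leaving out dim spots gave 0.25 and -0.05. The part of these probes in the single values of tumours 9 and 11 was not tested.

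**Figure D5:**
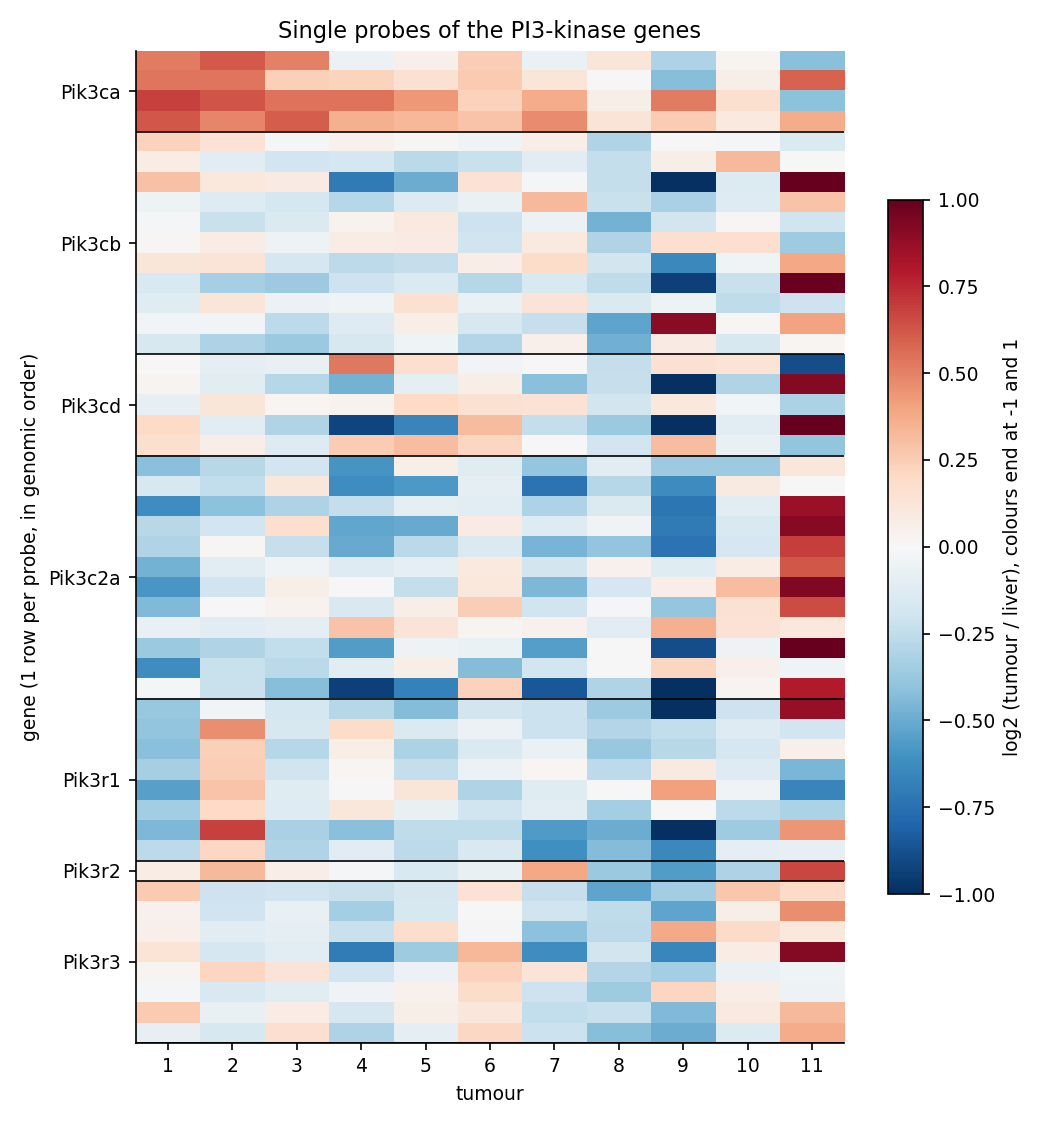
Log2 ratio of tumour over liver of each of the 49 probes of the 7 genes (rows, in genomic order within each gene) in the 11 tumours (columns); colours end at -1 and 1. The Pik3ca rows are red in tumours 1 to 3, and the rows that are dark blue in tumour 9 are mostly dark red in tumour 11.

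The wider pathway was read from 52 genes in 5 lists, of which 48 had a probe and 37 at least 3 probes. Of these 37, 2 were called higher and none lower by limma (4.59% and 2.30% of all genes; median of the list -0.01, of all genes -0.01), and none was called relative to its flanks. Both called genes act downstream of PI3-kinase. Foxo1, a transcription factor that AKT keeps out of the nucleus, had a mean of 0.21 ± 0.21 (SD, n = 11; adjusted p = 0.0378, limma), lies on chromosome 3 like Pik3ca, and was gained in the same 4 tumours, 1, 2, 3 and 4. Deptor, an inhibitor of mTOR on chromosome 15 (listed as Depdc6 on the array), had a mean of 0.21 ± 0.13, positive in 11 of 11 tumours (adjusted p = 0.0191, limma), and was gained in tumours 2, 3, 6 and 8. Without tumours 9 and 11 the list had 4 genes called higher and 3 lower, in a fit that called 16.0% of all genes, and centred on the mode it had 1 higher.

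Of the other PI3-kinase genes 8 of 9 were on the array and 7 were tested, with no call. Pik3r6, which encodes an adaptor of the γ kinase, had a mean of -0.19 ± 0.23 (SD, n = 11; adjusted p = 0.0674, limma) and was lost, with its neighbour and fellow adaptor gene Pik3r5 (-0.08), in tumours 7 and 8. Pik3cg, the γ catalytic subunit gene, had -0.09 and was lost in tumour 8, and Pik3ip1, a membrane inhibitor of PI3-kinase with 1 probe, had -0.15 and was lost in tumours 1 and 8. Of the 88 pairs of these 8 genes with a tumour, 0 lay in a gain and 12 in a loss, against 6.27% and 6.86% of pairs over all genes. These pairs are not independent, as Pik3r5 and Pik3r6 lay in the same lost segment in tumour 8.

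Of the lipid phosphatases that act against PI3-kinase none of 4 tested was called. Inppl1 and Inpp5k, with 1 and 2 probes, had means of -0.19 and -0.10 and were each in a loss in 2 tumours, and Inpp5j, with 1 probe, had 0.09 and was in a loss in tumours 1 and 8. None of the 6 tested receptors and adaptors was called. Erbb2, a receptor that signals through PI3-kinase, had 2 probes with a mean of 0.13 and was gained in tumours 2 and 8, by a segment of 4.52 Mb with a mean of 0.24 in tumour 2. Gab2, an adaptor for p85, had -0.11 ± 0.17 (SD, n = 11; adjusted p = 0.187, limma) and was lost in tumours 1 and 7, the tumours that lost Pik3c2a on the same chromosome.

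Among AKT and mTOR genes beyond Foxo1 and Deptor, Akt1 had 1 probe with a mean of -0.09 and was lost in tumours 1 and 8, in tumour 8 by a segment of 9.46 Mb. Rictor, the defining subunit of mTOR complex 2, had a mean of 0.14 ± 0.17 (SD, n = 11; adjusted p = 0.102, limma) and was gained in tumours 2, 3, 6 and 8, the tumours that gained Deptor on the same chromosome. Tsc2, a brake on mTOR complex 1, had 0.14 ± 0.16 (adjusted p = 0.0882, limma) and was gained in tumours 2 and 8, in tumour 2 by a short segment of 0.304 Mb with a mean of 0.28. Rps6kb2, an S6 kinase gene with 1 probe, had extremes of -1.55 (tumour 9) and 0.41 (tumour 11) and lay in a loss of 5.86 Mb in tumour 4.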

How the data were processed

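Per the file headers, the deposited scanner files hold the red and green intensities of each spot and a LogRatio, the log10 of red over green, written by the authors' Agilent Feature Extraction software (10.5.1.1; 11.0.1.1 for tumours 4, 7, 9 and 11). Submitters' processing notes also name Partek, with no version. The authors' deposited table holds log2 values equal to that LogRatio averaged per probe. Positions are mm9. Here log2 of processed red over green was averaged per probe, outlier spots were left out and the array median was subtracted; gene values are means over probes. Normexp used median signals, as 4 files lack mean signals.

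Genes with at least 3 probes were fitted with limma 3.58.1 (R 4.3.3, intercept, two-sided) and called where the adjusted p was below 0.05 and the mean was 0.1 or more from 0. Segments came from exact optimal partitioning (penalty 2 × noise variance × natural log of the probe number, segments of 5 probes or more, outliers beyond 4 SD pulled in), in Python 3.11.15 with numpy 2.4.6 and numba 0.67.0. Fits were tested on simulated data. P-values measure the spread between the 11 tumours.

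Genes named were the 7, their nearest neighbours, the 2 most alike, and up to 15 pathway genes called or in a segment of at most 20 Mb. 1 pathway gene is not reported here. The members and lists were chosen with earlier results of these data known.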

Additional observations from a re-analysis of the deposited data

How the results depend on the processing

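Each array already pairs a tumour with its own liver, and differences between genes were paired by tumour. No further pairing of samples was possible because the tumours form 1 group. Leaving out each tumour in turn gave Pik3ca means of 0.22 to 0.28 (called in 8 of 11), Pik3c2a -0.22 to -0.11, Pik3r1 -0.22 to -0.15 and Pik3r2 -0.063 to 0.060, and relative to flanks Pik3c2a -0.080 to 0.019, Pik3r1 -0.13 to -0.094, Pik3r2 -0.15 to -0.035 and Pik3r3 -0.047 to 0.0052; gains ran from 5 to 8 and losses from 3 to 6. With tumour 11 turned the means of Pik3cb, Pik3c2a, Pik3r1 and Pik3r2 were -0.12, -0.25, -0.16 and -0.12, the first 3 called, and relative to flanks Pik3r1, Pik3r2 and Pik3c2a were -0.11, -0.19 and -0.12. Without tumours 9 and 11, a setting added after seeing the data like the removal of probe GC content, Pik3c2a was -0.19 (called), Pik3r2 -0.0076 and Pik3r1 relative to flanks -0.11 (called). Pik3r1 was also called with normexp (-0.20), the authors' value table (-0.18), without dim spots (-0.17) and with the slide as a random block (-0.17, and -0.11 relative to flanks), where the correlations within slides were -0.11 and -0.16. Without dim spots Pik3r2 was -0.0025. Normexp put Pik3c2a and Pik3r3 at 0.0087 and 0.0089 relative to flanks, and the median over probes put Pik3cd there at 0.0036 and the differences Pik3r3 minus Pik3cb and Pik3cb minus Pik3cd at -0.0036 and -0.047. A call threshold of 0.3 gave 5 gains and 3 losses, and a penalty multiplied by 0.5 gave 11 losses. Pathway genes called higher numbered 1 with mode centring and 4 without tumours 9 and 11, with 3 lower in the latter. Causes were not tested.

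Over all genes limma called 641, of them 66.6% higher, and 222 (83.3% higher) with mode centring, 1046 with normexp, 1501 with the slide block, 996 of 20709 genes with at least 1 probe, 1680 with tumour 11 turned, 1493 without tumours 9 and 11 and 54 to 1612 without 1 tumour, the fewest without tumour 3. Relative to flanks it called 56, and 307 with normexp, 10 with medians over probes, 464 with at least 1 probe, 459 with the slide block, 805 with tumour 11 turned, 481 without tumours 9 and 11 and 7 to 566 without 1 tumour. Medians over probes and the slide block were not run for the single probe of Pik3r2. The noise SD of 0.55 and 0.51 in tumours 9 and 11 limits what their values can show; their dim spots were 12.8% and 3.09%, against 8.14% in tumour 2 with a noise SD of 0.16. Only 4 to 12 probes, or 1 for Pik3r2, stand behind each gene.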
